A study of Mus musculus with 9 samples.

Results

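The genes described here serve protein folding in the endoplasmic reticulum (ER), the unfolded protein response that adjusts it, and the amino acid programme linked to the transcription factor Atf4. They are 35 of the 18194 genes represented on the array, taken from a list: 24 ER folding genes and 11 Atf4-linked genes, kept apart throughout. Where several probe sets carried the gene's symbol alone, the brightest by its 9-array mean stood for the gene. All 35 lay at or above the brightness limit for testing, a mean log2 signal of 6.83, as did 9097 genes in all.

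The RNA came from bone marrow cells of FVB/NJ mice, sorted as stromal cells by the absence of CD45.1, a leukocyte surface protein, and of Ter119, an erythroid surface protein. There were 3 arrays from wild-type animals (WT), 3 from leukemia-bearing recipients whose marrow held 1 to 5% leukemic cells (the early phase, E) and 3 from recipients at 5 to 50% (the medium phase, M). The labels call the arrays of a group biological replicates, so p-values measure the spread between those, and the leukemia model, sex and age of the mice are not given in the sources used here. The series followed stromal gene expression as leukemia advances, and none of the 9 arrays used here came from its latent or late phases.

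Secreted and membrane proteins fold in the ER with the help of chaperones such as Hspa5 (BiP), of lectins that hold glycoproteins, and of disulfide isomerases. When unfolded proteins accumulate, the sensors Ern1 (IRE1), Atf6 and Eif2ak3 (PERK) respond: Ern1 splices Xbp1 mRNA into the form that encodes an active transcription factor, Atf6 is cut to release another, and Eif2ak3 phosphorylates the translation factor eIF2 alpha, which slows protein synthesis in general while Atf4 is translated. Atf4 drives genes of amino acid supply, of redox balance and of stress-linked cell death, and it answers to amino acid shortage as well as to ER stress. Cells that secrete much matrix or antibody carry a large folding apparatus. These arrays measure mRNA signals and hold no measure of Xbp1 splicing, Atf6 cutting or Eif2ak3 activity.

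Promoter windows from RefSeq (assembly GRCm38.p6), running from 250 bases before to 50 bases after the gene start, were at hand for 31 of the 35 members, and for Hyou1, Manf, Atf6 and Slc7a5 none was used. Both strands were searched for the ER stress response element (ERSE, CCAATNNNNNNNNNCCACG, bound by NF-Y and Atf6), for ERSE-II (ATTGGNCCACG), for the Xbp1-type core TGACGTGG, and for the C/EBP-ATF element TGATGNAA that Atf4 shares with C/EBP partners. An ERSE stood in 8 of the 21 ER folding windows and in 0 of the 10 Atf4-linked windows, against 0.119% of all 32851 windows. The sites are shown because the changes of these genes are compared below by whether they carry one. They are written 5′ to 3′ in the direction of the motif, with the fixed letters in capitals.
Hspa5: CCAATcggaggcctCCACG
Hsp90b1, farther site: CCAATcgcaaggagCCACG
Hsp90b1, nearer site: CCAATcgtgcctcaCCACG
Calr: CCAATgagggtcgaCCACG
Canx: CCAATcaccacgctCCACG
Pdia6: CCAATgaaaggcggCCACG
Dnajc3: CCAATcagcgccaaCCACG
Creld2: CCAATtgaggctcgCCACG
Syvn1: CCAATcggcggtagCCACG
The fixed letters are those searched for, while the 9 bases between them differed from site to site. A match of letters is a description of the window and not a binding site.

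ERSE-II was found in Herpud1 and Dnajb11 (0.0365% of all windows), and the Xbp1-type core in 0 of the 31 members' genes (0.676% of all windows). The C/EBP-ATF letters stood in 3 of the 10 Atf4-linked windows, those of Trib3, Asns and Chac1, and in 1 of 21 ER folding windows, that of Herpud1, against 3.97% of all windows. These sites are shown with 10 bases on either side for the C/EBP-ATF element, in the direction of the motif.
Herpud1, ERSE-II: ATTGGgCCACG
Dnajb11, ERSE-II: ATTGGcCCACG
Herpud1, C/EBP-ATF: gggtgcgggcTGATGcAAcccgccgtgg
Trib3, C/EBP-ATF: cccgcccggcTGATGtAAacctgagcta
Asns, C/EBP-ATF: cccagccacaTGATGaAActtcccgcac
Chac1, C/EBP-ATF: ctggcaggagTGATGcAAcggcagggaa
Herpud1 was the single member with elements of both kinds in its window. Trib3 and Asns share the C/EBP-ATF letters, and their signals in M moved in opposite directions on the deposited scale.

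The 250 bases before the gene start are given for 4 genes: Hspa5, the classic ERSE gene, and Dnajb9, Herpud1 and Chac1, the 2 ER folding genes and the Atf4-linked gene with the largest rises in M. Capitals mark any of the searched elements. The Hspa5 stretch lies at chr2:34771840-34772089 on the plus strand, that of Dnajb9 at chr12:44210069-44210318 on the minus strand, that of Herpud1 at chr8:94386179-94386428 on the plus strand and that of Chac1 at chr2:119350992-119351241 on the plus strand (GRCm38.p6).
Hspa5: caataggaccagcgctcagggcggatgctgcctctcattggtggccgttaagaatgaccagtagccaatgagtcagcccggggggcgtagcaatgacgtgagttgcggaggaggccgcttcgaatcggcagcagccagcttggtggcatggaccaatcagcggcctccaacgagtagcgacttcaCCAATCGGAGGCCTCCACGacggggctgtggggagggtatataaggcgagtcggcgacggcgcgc
Dnajb9: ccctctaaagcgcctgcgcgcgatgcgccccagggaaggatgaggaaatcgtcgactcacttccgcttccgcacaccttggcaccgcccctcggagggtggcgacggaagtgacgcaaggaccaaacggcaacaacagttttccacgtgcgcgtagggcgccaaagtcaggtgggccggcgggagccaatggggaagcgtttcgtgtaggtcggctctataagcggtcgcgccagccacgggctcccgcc
Herpud1: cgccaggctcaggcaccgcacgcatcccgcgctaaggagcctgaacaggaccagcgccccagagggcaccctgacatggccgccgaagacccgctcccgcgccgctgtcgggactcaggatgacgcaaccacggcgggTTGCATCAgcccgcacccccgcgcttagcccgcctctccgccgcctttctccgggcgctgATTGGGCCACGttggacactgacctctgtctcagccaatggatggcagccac
Chac1: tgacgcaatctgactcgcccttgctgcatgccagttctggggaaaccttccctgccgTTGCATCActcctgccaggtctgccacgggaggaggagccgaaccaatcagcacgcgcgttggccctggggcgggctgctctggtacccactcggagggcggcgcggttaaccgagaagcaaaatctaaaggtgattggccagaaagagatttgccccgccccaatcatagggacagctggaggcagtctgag
The Dnajb9 stretch has no capitals, since none of the 4 elements was found in its window. No match says only that these letters are not in this window.

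The scale of the M arrays bears on every direction below. Poly-A control RNAs, which are normally added before labelling (12 probe sets), read higher in M than in WT by 1.01 (log2) and differed by -0.01 between E and WT. Their means in M replicates 1, 2 and 3 were 10.44, 9.88 and 10.04. Scaling on them therefore shifts the arrays of a group by unlike amounts, and p-values on that scale hold this spread too. The median over all 18194 genes lay between 7.51 and 7.69 in the M arrays and between 6.39 and 6.55 in the WT and E arrays. Over the 9097 genes tested it lay between 9.85 and 9.88 in the M arrays and between 9.73 and 9.76 in the WT and E arrays. Values are therefore given as deposited and also relative to the 9097 genes tested, whose median change was -0.19 in M against WT, -0.19 in M against E and 0.01 in E against WT. That relative value does not move when a whole array is scaled up or down. Of the genes called in M against WT, 36.8% were higher on the deposited scale, 27.0% after quantile normalization, and 11.8% with arrays centred on the median or scaled on the control RNAs. Centring used the median over all 18194 genes, and centring on the genes tested was not tried. Centring and control RNA scaling each lower all genes in M, against WT or E, by the same amount. A gene lower as deposited therefore stays lower under both.

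Markers of stromal and blood cells shifted between the groups along with the members. The summed linear signal of 12 mesenchymal niche markers was 3417 to 3822 in WT, 3508 to 3815 in E and 64488 to 84680 in M, and 11 of the 11 tested were called higher in M than in WT. This count and the marker counts below stand against 25.3% of all genes called higher. Some markers, such as Prrx1 (means of 5.40 in WT, 5.61 in E and 11.31 in M), reached the brightness limit only through M. For these the call is a description of genes that are dim elsewhere. Erythroid markers summed to between 48400 and 59909 in WT and E, to 62994 and 59174 in M replicates 1 and 2, and to 31198 in M replicate 3. Granulocyte markers summed to between 9895 and 13879 in WT and E and to between 93442 and 112954 in M. Pan-leukocyte markers summed to 4210 to 4721 in WT, 3080 to 3342 in E and 7700 to 12724 in M, with 7 of 7 called higher in M than in WT. Chondrocyte markers summed to 97868 to 108686 in M against 13570 to 27320 in WT and E, and osteoblast markers to 12206 to 14536 against 1147 to 1522. Of the plasma cell sum, the member Xbp1 made up 81.9 to 88.8%, and the 7 other genes summed to 655 to 717 in WT, 541 to 580 in E and 1715 to 2586 in M. In that list 4 of the 4 tested, Xbp1 among them, were called higher in M, and the untested Prdm1, Irf4, Tnfrsf17 and Derl3 had their highest means in M too, Tnfrsf17 at 3.68. These untested genes are dim, and the median over all genes on the array was higher in M as well. No marker read exactly 0 on any array, and the part of these shifts in the members' changes was not tested. In bulk RNA of sorted cells, fewer cells of a type and less RNA per cell cannot be told apart.

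In the early phase, 0 of the 35 members passed the test against WT, where 2.11% of all genes did. The ER folding genes had a median change of -0.01 and a range of -0.51 to 0.31, and the Atf4-linked genes a median of 0.01 and a range of -1.92 to 0.45. WT and E arrays did not overlap in 5 of 24 ER folding genes and in 5 of 11 Atf4-linked genes, against 29.7% of all genes. At an unadjusted p under 0.05, 1279 of the 9097 genes differed. Signals of the folding machinery in E thus lay within 0.31 (log2) of WT for the ER folding genes other than Dnajb9 and Ppp1r15a. Array weights in limma called 5 of the 35 and 848 of all 9097 genes. A fit of WT and E alone called 5 of the 35 and 756 of all genes. Among all genes the 192 calls became 98 to 113 without a single WT or E array and 836 without M replicate 3. Granulocyte markers summed to 9895 to 10981 in WT and 12741 to 13879 in E, chondrocyte markers to 23360 to 27320 and 13570 to 14136, and their part in these values was not tested.

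**Figure D1:**
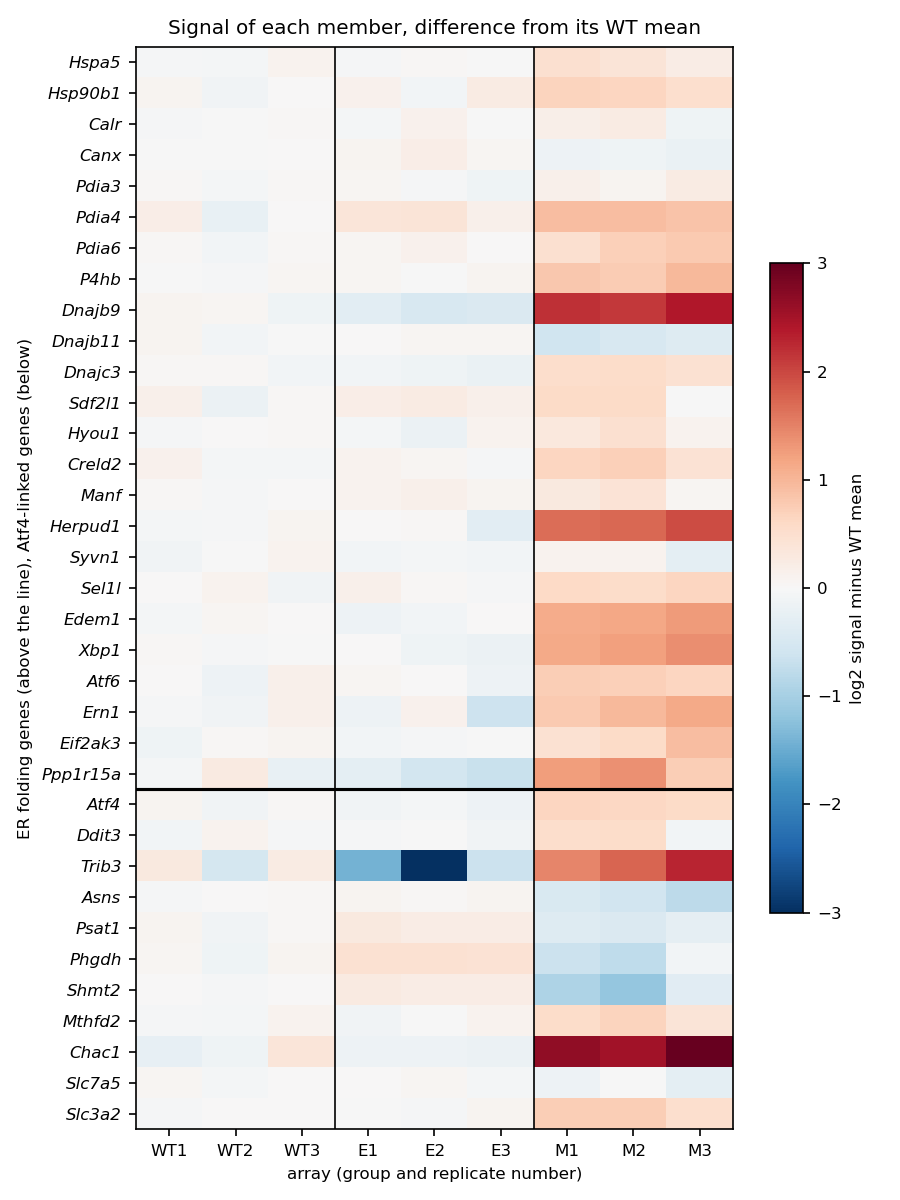
Each row is a member gene and each column an array, and the colour gives the log2 signal minus the gene's WT mean on a scale that ends at -3 and 3. The E columns are pale in nearly every row, with Trib3 in E2 the deepest blue and, like Chac1 in M3, beyond the scale, and the M columns are red for Dnajb9, Herpud1, Xbp1, Edem1, Trib3 and Chac1 and blue for Dnajb11, Asns, Psat1, Phgdh and Shmt2.

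Dnajb9, an ER co-chaperone (ERdj4) of the Hspa5 system, came closest to passing in E among the ER folding genes. Dnajb9 read 10.27, 10.24 and 10.05 in the WT arrays, 9.88, 9.71 and 9.74 in the E arrays and 12.39, 12.31 and 12.59 in the M arrays. The 3 groups did not overlap: E was the lowest and M the highest. Its change in E was -0.41 (SE 0.09, adjusted p = 0.0553). With the spread taken from WT and E alone the adjusted p was 0.0105, without M replicate 3 it was 0.00393, and over all alternatives it ranged from 0.00393 to 0.986.

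Ppp1r15a (GADD34) directs the phosphatase that takes the phosphate off eIF2 alpha and so reopens translation. Ppp1r15a read 10.05, 10.35 and 9.88 in WT, 9.80, 9.53 and 9.42 in E and 11.36, 11.47 and 10.83 in M. The E arrays were all below the WT arrays and the M arrays all above them. Its change in E was -0.51 (SE 0.17, adjusted p = 0.203), with an adjusted p of 0.0148 without M replicate 3, 0.0239 in a fit of WT and E alone, and a range of 0.0148 to 0.547 over the alternatives.

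Genes of serine synthesis and use lay above WT in E on every array, at the probe sets chosen. Phgdh encodes the enzyme that opens the serine pathway, Psat1 the next enzyme, and Shmt2 the mitochondrial enzyme that passes a carbon from serine to folate. Phgdh read 11.96, 11.78 and 11.98 in WT, 12.36, 12.36 and 12.34 in E and 11.25, 11.14 and 11.81 in M. Psat1 read 11.47, 11.30 and 11.42 in WT, 11.70, 11.62 and 11.62 in E and 11.01, 10.96 and 11.13 in M. Shmt2 read 11.07, 11.03 and 11.07 in WT, 11.33, 11.29 and 11.28 in E and 10.14, 9.90 and 10.71 in M. All 3 genes had their highest arrays in E and their lowest in M, with overlap only between WT and M replicate 3 for Phgdh.

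None of these serine genes passed in E against WT in the fit of all 9 arrays. The changes were 0.45 for Phgdh (SE 0.14, adjusted p = 0.172), 0.25 for Psat1 (SE 0.07, adjusted p = 0.140) and 0.24 for Shmt2 (SE 0.16, adjusted p = 0.541). These values turned on M replicate 3, though it is in neither group. Without it the adjusted p values were 0.000362, 0.0202 and 0.0372, and in a fit of WT and E alone they were 0.000556, 0.0264 and 0.0169. Over all alternatives they ranged from 0.000362 to 0.574 for Phgdh, from 0.0174 to 1.00 for Psat1 and from 0.0169 to 1.00 for Shmt2. The other probe sets of Phgdh differed between E and WT by 0.46, 0.67 and 0.55, and the other of Psat1 by 0.42. Those of Shmt2 differed by 0.27, 0.09 and -0.20.

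Trib3, a pseudokinase induced by Atf4 and its partner Ddit3, had the widest spread of all members in E. Trib3 read 7.15, 6.33 and 7.12 in WT, 5.45, 3.17 and 6.22 in E and 8.32, 8.61 and 9.14 in M. The E arrays lay below the WT arrays, with E replicate 2 far below the others, and the M arrays lay above both. Its change in E was -1.92 (SE 0.62, adjusted p = 0.180), -1.03 without E replicate 2 and -2.55 without E replicate 3. It was called lower with array weights (adjusted p = 0.0347) and on the control RNA scale (adjusted p = 3.07e-06), and its adjusted p ranged from 3.07e-06 to 0.395 over the alternatives. On the control RNA scale its change was -1.91, near that as deposited, where its E arrays had an SD of 1.59. The small p on that scale therefore does not measure the spread of its own arrays. Its other probe set differed by -0.35 between E and WT.

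In the medium phase the ER folding genes stood higher on the deposited scale. Of the 24, 19 were called higher in M than in WT, where 25.3% of all genes were, 2 were called lower (43.5% of all genes) and 3 did not pass. In total 68.8% of all genes were called, and the arrays of the 2 groups did not overlap in 21 of the 24 against 72.0% of all genes. The median change was 0.60, with a range of -0.48 to 2.24, and 5 members kept a higher signal under every scaling tried (Dnajb9, Herpud1, Xbp1, Edem1 and Ppp1r15a) while 16 turned to lower with arrays centred on the median or scaled on the control RNAs. Relative to the median of all genes tested, 23 of 24 lay above it, by 0.79 in the median member. A member's change stood at between the 26.5th and the 92.5th percentile of the changes of all genes, with the median member at 80.8.

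The Atf4-linked genes went in both directions in M. Of the 11, 5 were called higher than in WT (Atf4, Trib3, Chac1, Mthfd2 and Slc3a2), against 25.3% of all genes, 4 were called lower (Asns, Psat1, Phgdh and Shmt2), against 43.5%, and 2 did not pass (Ddit3 and Slc7a5). Without Trib3 and Chac1, which reached the brightness limit only through M, 3 of 9 were higher and 4 lower, with a median of -0.15, and these shares lie near those of all genes. Over the 11 the median change was 0.33, and lay between 0.22 without M replicate 2 and 0.54 without M replicate 3. Trib3 and Chac1 were higher under every scaling tried. The 4 lower genes were lower as deposited, and so under centring and control RNA scaling, and also after quantile normalization. Slc7a5 had the same direction, but its change after quantile normalization was only -0.01 (adjusted p = 0.898). Atf4, Ddit3, Mthfd2 and Slc3a2 turned to lower with arrays centred on the median or scaled on the control RNAs. Relative to the median of all genes, 7 of 11 lay above it, with changes from the 6.31th to the 94.5th percentile.

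**Figure D2:**
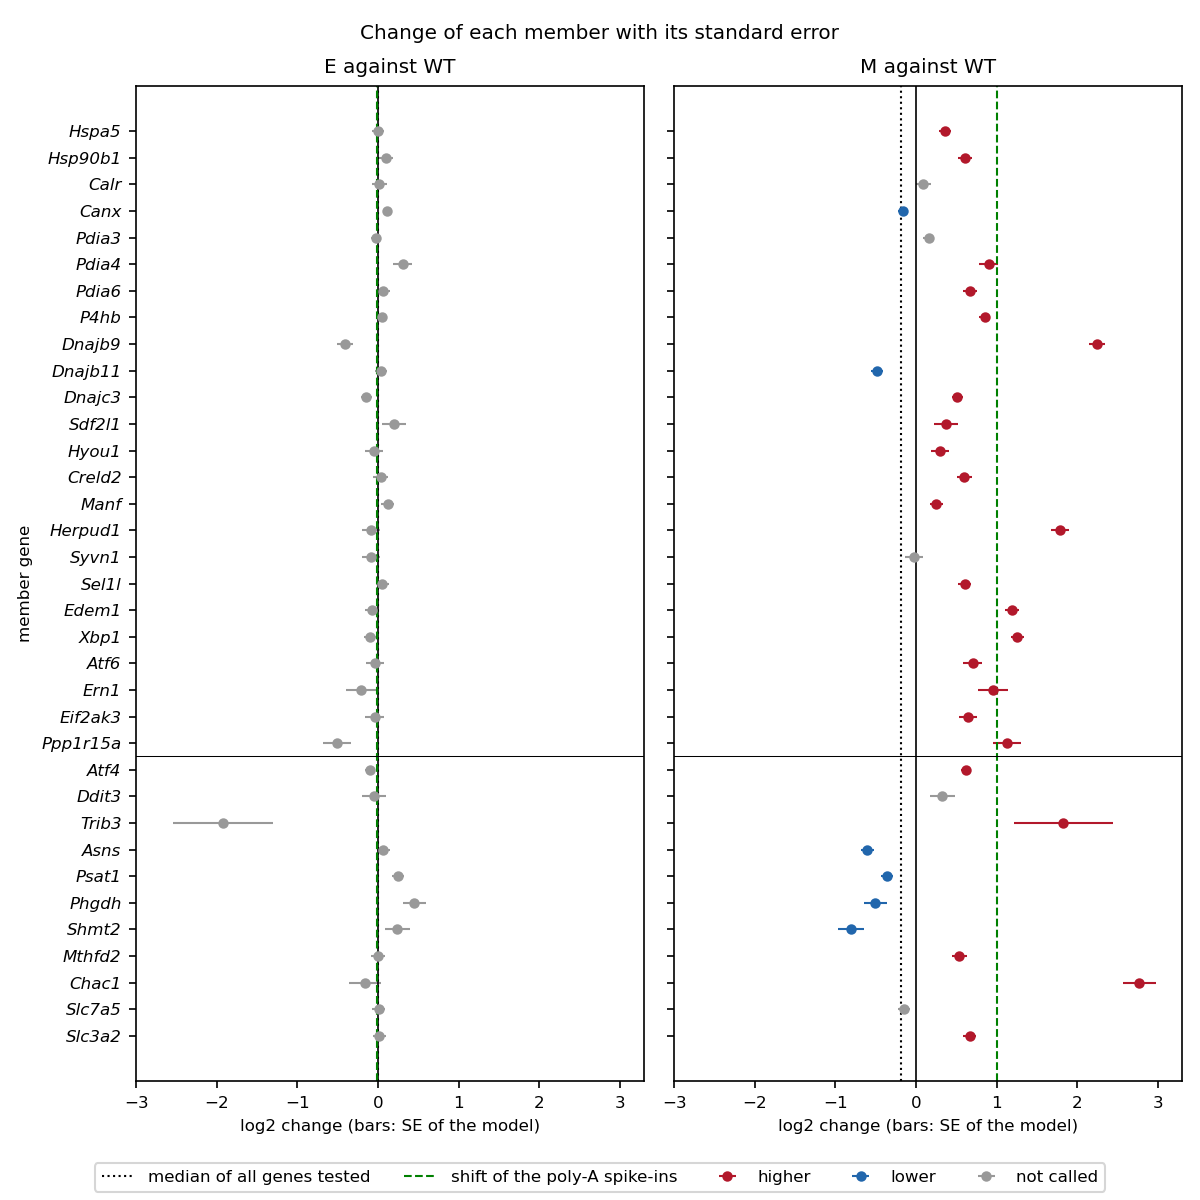
Points give the log2 change of each member in E against WT (left) and M against WT (right) with the standard error of the model as bars, red for genes called higher, blue for genes called lower and grey for those not called. The dotted line marks the median change of all genes tested (0.01 and -0.19) and the dashed line the shift of the control RNAs (-0.01 and 1.01), which Dnajb9, Herpud1, Xbp1, Edem1, Ppp1r15a, Trib3 and Chac1 exceed in M.

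Among the chaperones, Hspa5, the main Hsp70 of the ER, read 14.07, 14.04 and 14.21 in WT, 14.08, 14.14 and 14.09 in E and 14.59, 14.49 and 14.32 in M. The M arrays were all above the others, while WT and E overlapped. Hspa5 was called higher in M by 0.36 (1.28-fold, SE 0.07, adjusted p = 0.00117), and its other probe sets differed by 0.70 and 0.12. Hsp90b1 (GRP94), the Hsp90 of the ER, read 12.82 to 13.00 in WT, 12.84 to 13.16 in E and 13.41 to 13.59 in M, and was higher in M by 0.61 (1.52-fold, adjusted p = 0.000103). With arrays scaled on the control RNAs both turned to lower, by -0.65 and -0.40. Hyou1, which exchanges the nucleotide of Hspa5, read 9.95 to 10.02 in WT, 9.80 to 10.08 in E and 10.09 to 10.46 in M. Its call in M (0.30, adjusted p = 0.0278) ended without any single WT array, without M replicate 1 or without M replicate 2 (adjusted p from 0.0534 to 0.107) and after quantile normalization (adjusted p = 0.129), and with the mean of its probe sets its change was 0.03 (adjusted p = 0.905).

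Of the lectin chaperones that retain unfinished glycoproteins, Canx fell and Calr did not pass. Canx (calnexin) read 14.15, 14.15 and 14.16 in WT, 14.23, 14.35 and 14.22 in E and 13.99, 14.03 and 13.94 in M. The 3 groups did not overlap, with E the highest and M the lowest. Canx was called lower in M by -0.17 (SE 0.06, adjusted p = 0.0203), a call that ended without WT replicate 1, after quantile normalization, without the brightness filter and without the trend (adjusted p = 0.0530, 0.125, 0.0537 and 0.0589). Its other probe sets differed by 0.08 and -0.54. Calr (calreticulin) read 13.36 to 13.42 in WT, 13.33 to 13.50 in E and 13.56, 13.62 and 13.25 in M, so that M replicate 3 lay below all WT arrays. Calr did not pass (0.09, adjusted p = 0.381), and without M replicate 3 it did (0.21, adjusted p = 0.00621). The other probe sets of Calr, which are of the type that can share probes with related transcripts, differed by 0.48 and 0.52.

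Disulfide isomerases other than Pdia3, which works with the lectins, were called higher in M on the deposited scale and turned to lower with arrays centred or scaled on the control RNAs. P4hb, which is also the beta subunit of the collagen prolyl hydroxylase, read 12.46, 12.42 and 12.52 in WT, 12.52, 12.46 and 12.55 in E and 13.27, 13.23 and 13.45 in M. The M arrays stood clear of the rest. P4hb was higher by 0.85 (1.80-fold, SE 0.07, adjusted p = 1.27e-06). Pdia4 rose by 0.90, from between 8.89 and 9.31 in WT to between 9.96 and 10.03 in M (1.87-fold, adjusted p = 4.39e-05), and Pdia6 by 0.66, from between 10.78 and 10.91 to between 11.35 and 11.66 (1.59-fold, adjusted p = 4.73e-05). With the mean of its probe sets, 1 of them dim, Pdia4 did not pass (1.13, adjusted p = 0.0843). Pdia3 read 12.54 to 12.62 in WT, 12.47 to 12.66 in E and 12.67 to 12.83 in M (0.16, adjusted p = 0.0592, and 0.0430 without M replicate 2). All 4 isomerases turned to lower on the control RNA scale, by -0.16 for P4hb, -0.11 for Pdia4, -0.35 for Pdia6 and -0.86 for Pdia3.

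J-domain co-chaperones, which bring clients to Hspa5 and start its ATP cycle, went in opposite directions. Dnajb9 was higher in M than in WT by 2.24 (4.74-fold, SE 0.09, adjusted p = 8.96e-09), the largest change among the ER folding genes, and stayed higher by 1.23 with arrays scaled on the control RNAs. Dnajb11 (ERdj3), a soluble co-chaperone, read 11.33, 11.18 and 11.24 in WT, 11.26, 11.30 and 11.31 in E and 10.65, 10.77 and 10.86 in M. Its M arrays were all below the others. Dnajb11 was lower by -0.48 (1.40-fold, SE 0.07, adjusted p = 0.000168), the 1 ER folding gene below the median of all genes. Dnajc3 (p58IPK), which also restrains Eif2ak3, read 11.20 to 11.34 in WT, 11.08 to 11.20 in E and 11.74 to 11.85 in M, higher in M by 0.51 (adjusted p = 6.13e-05) and lower by -0.50 on the control RNA scale.

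Of the smaller stress-induced luminal proteins, Sdf2l1 and Manf had calls that leaned on single arrays and Creld2 did not, and all 3 were higher only without centring or control RNA scaling. Sdf2l1, which partners Dnajb11, read 10.28, 9.95 and 10.16 in WT, 10.33, 10.38 and 10.28 in E and 10.69, 10.69 and 10.11 in M. M replicate 3 lay within the WT range and the other M arrays above it. Its call (0.37, adjusted p = 0.0442) ended without WT replicate 2 or 3, without any single E array, or without M replicate 1 or 2 (adjusted p from 0.0602 to 0.162), and it was 0.56 without M replicate 3. The call also ended without the brightness filter, without the trend, after quantile normalization, with the mean of probe sets and in a fit of the 2 groups alone (adjusted p from 0.0544 to 0.0974). Manf, a secreted factor that leaves the ER under stress, read 12.38 to 12.46 in WT, 12.50 to 12.58 in E and 12.73, 12.82 and 12.47 in M. Manf was higher in M by 0.25 (adjusted p = 0.0200), a call that ended without WT replicate 2, M replicate 1 or M replicate 2 (adjusted p from 0.0575 to 0.0819). Creld2, another secreted ER stress protein, read 10.48 to 10.68 in WT, 10.51 to 10.65 in E and 10.98 to 11.26 in M, higher by 0.60 (1.51-fold, adjusted p = 0.000178). Sdf2l1, Manf and Creld2 turned to lower with arrays scaled on the control RNAs (-0.64, -0.76 and -0.41).

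Genes of ER-associated degradation, which extracts misfolded proteins for the proteasome, held the largest rise of the ER folding genes after Dnajb9, that of Herpud1. Herpud1, a membrane scaffold of the extraction complex, read 9.76, 9.81 and 9.92 in WT, 9.84, 9.86 and 9.51 in E and 11.50, 11.56 and 11.78 in M. The M arrays stood far above both other groups, which overlapped. Herpud1 was higher by 1.78 (3.44-fold, SE 0.11, adjusted p = 1.78e-07), and by 0.77 with arrays scaled on the control RNAs. Edem1, a lectin-like protein that hands over misfolded glycoproteins, read 9.11, 9.22 and 9.19 in WT, 9.03, 9.08 and 9.19 in E and 10.29, 10.34 and 10.46 in M (1.19 higher, 2.28-fold, adjusted p = 7.06e-07). On the control RNA scale its change was 0.18 and did not pass (adjusted p = 0.434).

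The ubiquitin ligase of this pathway did not pass, and its adaptor was called higher on the deposited scale. Syvn1 (Hrd1), the ligase, read 10.33, 10.42 and 10.55 in WT, 10.34, 10.36 and 10.34 in E and 10.55, 10.53 and 10.14 in M. The groups overlapped, and M replicate 3 was the lowest of all 9 arrays. Its change in M was -0.03 (adjusted p = 0.836), 0.11 without M replicate 3. Sel1l, the adaptor that stabilizes Syvn1, read 10.14 to 10.34 in WT, 10.22 to 10.40 in E and 10.79 to 10.89 in M. Sel1l was higher by 0.60 (1.52-fold, adjusted p = 6.46e-05) and its 4 other probe sets by 0.57 to 1.00, while on the control RNA scale it was lower by -0.41.

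Of the sensors and effectors, Xbp1 rose most. Xbp1 read 12.16, 12.09 and 12.10 in WT, 12.14, 11.98 and 11.94 in E and 13.25, 13.35 and 13.52 in M. Every M array was above every other array by more than the spread within any group. Xbp1 was higher by 1.26 (2.39-fold, SE 0.08, adjusted p = 1.97e-07), its 3 other probe sets by 0.68 to 1.46, and on the control RNA scale it was higher by 0.25 without passing (adjusted p = 0.215). Ppp1r15a was higher in M by 1.13 (2.18-fold, SE 0.17, adjusted p = 0.000168), and by 0.11 on the control RNA scale (adjusted p = 0.609).

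The genes of the 3 sensors were called higher in M on the deposited scale and turned to lower on the control RNA scale. Ern1 read 7.94 to 8.18 in WT, 7.90, 8.16 and 7.42 in E and 8.83 to 9.17 in M (0.96 higher, 1.94-fold, adjusted p = 0.000789). Eif2ak3 read 9.53 to 9.74 in WT, 9.58 to 9.64 in E and 10.11, 10.22 and 10.57 in M (0.65 higher, 1.56-fold, adjusted p = 0.000530). Atf6 read 8.45 to 8.77 in WT, 8.46 to 8.66 in E and 9.26 to 9.36 in M (0.70 higher, 1.63-fold, adjusted p = 0.000231). In each of these genes the M arrays were above all others and WT and E overlapped. On the control RNA scale the changes were -0.05, -0.37 and -0.31.

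Atf4 itself, the transcription factor of the amino acid programme, read 12.49, 12.31 and 12.45 in WT, 12.32, 12.37 and 12.27 in E and 13.07, 13.04 and 13.00 in M. The M arrays lay close together and above the rest. Atf4 was higher in M by 0.62 (1.54-fold, SE 0.06, adjusted p = 8.57e-06), its second bright probe set by 0.72, and it was lower by -0.39 with arrays scaled on the control RNAs. With the mean of all its probe sets, 1 of them dim, it did not pass (0.47, adjusted p = 0.187). Much of the control of Atf4 is at translation, which these arrays do not measure.

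**Figure D3:**
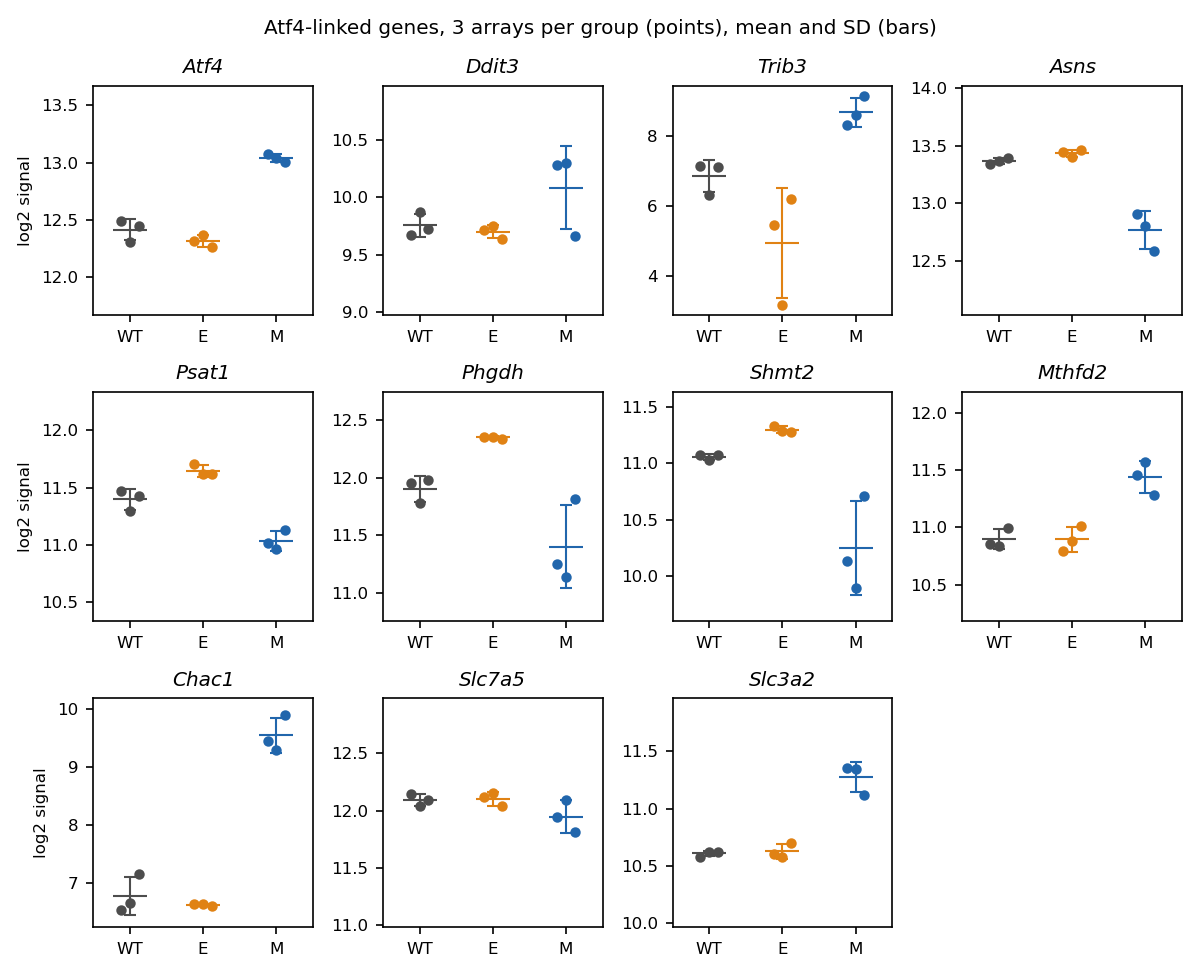
Each panel shows the log2 signal of an Atf4-linked gene in the 3 WT, 3 E and 3 M arrays (points) with the group mean and SD (bars), on an axis of its own range. Chac1, Trib3, Atf4, Slc3a2 and Mthfd2 are highest in M, Asns, Psat1, Phgdh and Shmt2 are lowest in M, and M replicate 3 sits apart from the other M arrays for Ddit3, Phgdh and Shmt2.

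At the stress end of the Atf4 programme stood Chac1 and Trib3, which reached the brightness limit only through the M arrays, so their folds and p-values in M are a description of genes that are dim elsewhere. Chac1, an enzyme that degrades glutathione, read 6.53, 6.65 and 7.15 in WT, 6.63, 6.63 and 6.59 in E and 9.45, 9.30 and 9.89 in M. The M arrays were more than 2 log2 units above every other array. Chac1 was higher in M by 2.77 (6.81-fold, SE 0.20, adjusted p = 6.15e-07) and stayed higher by 1.76 with arrays scaled on the control RNAs. Trib3 was higher in M than in WT by 1.83 (3.55-fold, SE 0.62, adjusted p = 0.0214) and its other probe set by 1.95. The Trib3 call ended without WT replicate 2 (1.56, adjusted p = 0.0808), after quantile normalization (1.17, adjusted p = 0.116) and with arrays centred on the median (0.77, adjusted p = 0.204).

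Ddit3 (CHOP), the death-linked partner of Atf4, depended on M replicate 3. Ddit3 read 9.67, 9.87 and 9.73 in WT, 9.71, 9.75 and 9.64 in E and 10.28, 10.30 and 9.67 in M. Of the M arrays 2 lay above all others and replicate 3 lay among WT and E. Ddit3 did not pass (0.33, SE 0.15, adjusted p = 0.0732), and without M replicate 3 it was higher by 0.54 (adjusted p = 7.29e-05). Its dimmer probe set differed by -0.20.

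Asparagine and serine synthesis genes, textbook targets of Atf4, were lower in M on the deposited scale and after quantile normalization, while Atf4 was higher on both. The other scalings lower all M signals, so these genes could only stay lower there. Asns, asparagine synthetase, read 13.34, 13.37 and 13.40 in WT, 13.45, 13.40 and 13.46 in E and 12.91, 12.80 and 12.58 in M. Its M arrays were all below the others. Asns was lower by -0.60 (1.52-fold, SE 0.08, adjusted p = 4.39e-05) and its other probe set by -0.48. Psat1 was lower by -0.36 (1.28-fold, adjusted p = 0.00118) and its other probe set by -0.66.

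Phgdh and Shmt2 fell as well, each with M replicate 3 nearest to WT. Phgdh was lower in M than in WT by -0.50 (1.42-fold, SE 0.14, adjusted p = 0.00863), with M replicate 3 inside the WT range, and by -0.71 without that array. Its other probe sets differed by -0.32, -0.12 and 0.02, and with the mean of its probe sets it did not pass (-0.23, adjusted p = 0.0663). Shmt2 was lower by -0.81 (1.75-fold, SE 0.16, adjusted p = 0.000888), by -1.04 without M replicate 3, and its other probe sets differed by -0.46, 0.15 and -0.94. The probe sets chosen for Asns, Phgdh, Shmt2 and Trib3 are of the type that can share probes with other transcripts. Those chosen for Canx, Hyou1, Syvn1 and Xbp1 are of another type that can match several transcripts.

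Not all one-carbon and transport genes followed the serine genes. Mthfd2, the mitochondrial enzyme that handles the carbon released by Shmt2, averaged 10.90 ± 0.09 in WT (SD, n = 3) and read 10.79, 10.88 and 11.02 in E and 11.46, 11.57 and 11.29 in M. Its M arrays were above all others, and it was higher by 0.54 (1.45-fold, adjusted p = 0.000328), or lower by -0.47 on the control RNA scale. Slc3a2 and Slc7a5 encode the heavy and the light chain of the same leucine transporter. Slc3a2 read 10.58 to 10.62 in WT, 10.58 to 10.70 in E and 11.12 to 11.35 in M, higher by 0.66 (1.58-fold, adjusted p = 2.64e-05) and lower by -0.35 on the control RNA scale. Slc7a5 read 12.04 to 12.14 in WT, 12.04 to 12.15 in E and 11.94, 12.09 and 11.81 in M, a change of -0.15 that did not pass (adjusted p = 0.113) and that passed without M replicate 2 (-0.22, adjusted p = 0.0241).

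The comparison of M with E shares the M arrays with that of M with WT and the E arrays with that of E with WT, and its values stand beside theirs. Of the 24 ER folding genes 18 were called higher in M than in E (26.1% of all genes) and 2 lower (43.9%), and 20 did not overlap (73.1%), with 70.0% of all genes called. Of the 11 Atf4-linked genes 6 were called higher and 4 lower, and 9 did not overlap. By arithmetic, genes that lay on the far side of WT in E had larger steps from E: Trib3, whose E mean of 4.95 lay below the brightness limit, changed by 3.75 (13.4-fold, adjusted p = 0.000254), Dnajb9 by 2.65 (6.29-fold, adjusted p = 1.88e-09) and Ppp1r15a by 1.64 (3.11-fold, adjusted p = 8.54e-06). Without E replicate 2 the step of Trib3 was 2.86. Shmt2 changed by -1.05 (2.07-fold, adjusted p = 0.000126), Phgdh by -0.95 (1.93-fold, adjusted p = 0.000122), Asns by -0.67 (adjusted p = 1.68e-05) and Psat1 by -0.61 (adjusted p = 2.41e-05). These 7 genes kept their direction from E to M under every scaling tried. For Shmt2, Phgdh, Asns and Psat1, which fell, only quantile normalization could have turned it.

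Some steps from E to M rested on single arrays. Pdia3 (0.18, adjusted p = 0.0324) lost its call without E replicate 2 or 3 or M replicate 1 or 3 (adjusted p from 0.0547 to 0.133), without the brightness filter or the trend, with array weights, with the mean of probe sets and in a fit of the 2 groups alone (adjusted p from 0.0526 to 0.156). Ddit3 (0.38, adjusted p = 0.0414) lost it without any 1 of the 9 arrays other than M replicate 3 (adjusted p from 0.0535 to 0.149), and was 0.59 without that array. Sdf2l1 (0.17, adjusted p = 0.332) and Manf (0.13, adjusted p = 0.181) did not pass and did so without M replicate 3 (0.36 and 0.23, adjusted p = 0.00278 and 0.00181). In M replicate 3, Ddit3, Ppp1r15a, Sdf2l1 and Syvn1 read 0.63, 0.58, 0.58 and 0.40 below the mean of the other M arrays, and Shmt2, Trib3, Phgdh, Chac1 and Eif2ak3 read 0.69, 0.68, 0.62, 0.52 and 0.41 above it. The erythroid and cell cycle marker sums were lowest in that array as well (31198 and 53552), and their part in these differences was not tested.

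**Figure D4:**
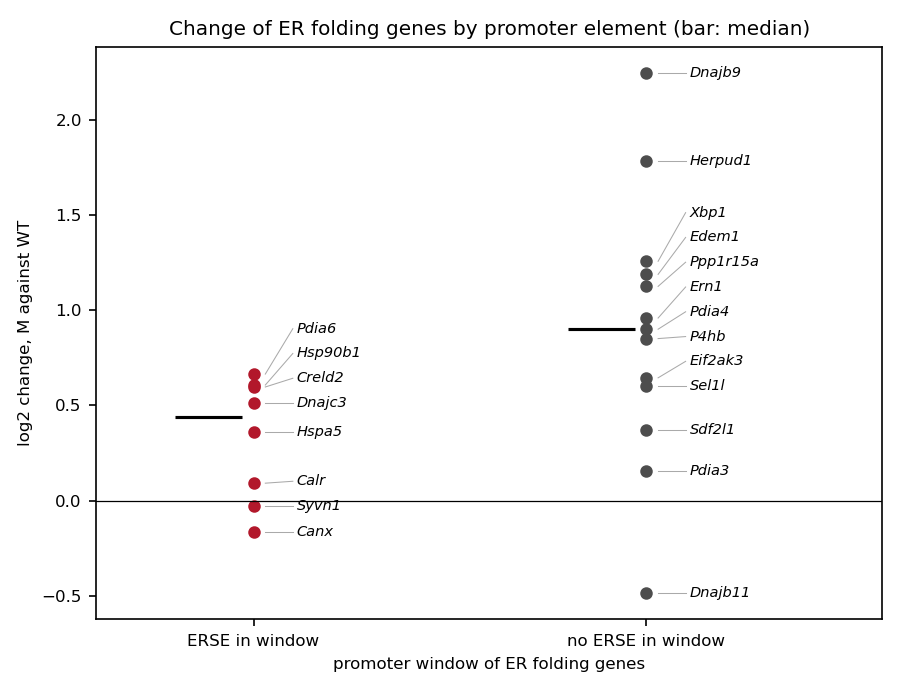
Points give the log2 change in M against WT of the 21 ER folding genes with a promoter window, split by whether the window holds an ERSE, with a bar at each median. The 8 genes with an ERSE lie between -0.17 and 0.66 and the 13 without one between -0.48 and 2.24.

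ER folding genes with an ERSE in the promoter window did not lead the rises. The 8 such genes had a median change of 0.44 in M against WT (5 called higher, 1 lower). The 13 without had a median of 0.90 (11 higher, 1 lower), where 25.3% of all genes were called higher and 43.5% lower. These counts are a description without a test, and both medians shift alike when whole arrays are rescaled. In E against WT the medians were 0.03 and -0.04. Of the 5 ER folding genes that were higher under every scaling, Herpud1 carries the ERSE-II and C/EBP-ATF letters shown above and the other 4 carry none of the 4 elements in the window. ERSE-II was in 1 gene that rose, Herpud1, and in 1 that fell, Dnajb11.

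Around these members, 198 other genes of secretion and of the Atf4 programme were followed in 10 lists, 179 of them bright enough to be tested. In E against WT, 1 was called higher and 1 lower. Ssr2, a subunit of the translocon-associated complex, read 11.21, 11.41 and 11.19 in WT and 11.78, 11.57 and 11.80 in E (0.45, adjusted p = 0.0271). Ppic, an ER prolyl isomerase, read 9.62, 9.56 and 9.75 in WT and 8.97, 8.82 and 8.89 in E (-0.75, adjusted p = 0.0282). Both calls ended after quantile normalization (adjusted p = 0.0525 for Ssr2 and 0.0863 for Ppic), and that of Ssr2 also on the control RNA scale (adjusted p = 0.628). In M against WT 65 were called higher, 53 lower and 61 were not called, where 25.3% of all genes were higher and 43.5% lower, and each list's counts below stand against those shares. Named genes are the largest called rise and fall of each list.

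Lists of folding helpers and of vesicle transport had medians 0.47 to 0.96 above the median of all genes in M. ER prolyl isomerases, calcium-binding proteins and other chaperones had 13 of 23 higher and 2 lower on the deposited scale, with a median of 0.77 (-0.24 on the control RNA scale). Serpinh1 (HSP47), the collagen chaperone, read 8.74 to 8.76 in WT and 12.33 to 12.77 in M, 3.74 higher under the deposited scale (13.3-fold, adjusted p = 1.28e-09) and 2.73 higher on the control RNA scale, and Fkbp2 was lower by -0.70. Other disulfide isomerases and oxidases had 10 of 16 higher and 4 lower (median 0.29, and -0.72 on the control RNA scale), from Pdia5 at 2.35 to Pdia2 at -1.54. ER to Golgi coat and cargo genes had 13 of 21 higher and 4 lower (median 0.28, and -0.73), from Sec24d at 2.07 to Sec24c at -0.42.

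Lists that feed proteins into the ER or take them out, and further regulators, had medians 0.04 to 0.18 above the median of all genes, and no test between lists was run. The translocon and signal peptidase genes had 3 of 22 higher and 6 lower (median -0.06, which was 0.02 after quantile normalization), with Ssr3 at 0.51 and Srp72 at -0.49. Oligosaccharyl transferase and glycan trimming genes had 2 of 20 higher and 7 lower (median -0.15), with Ostc at 0.58 and Alg8 at -0.74. The rest of ER-associated degradation had 3 of 22 higher and 9 lower (median -0.11), with Selenos at 1.02 and Nploc4 at -0.64. Of 13 further regulators of the response, 4 were higher and 4 lower (median -0.01, which was 0.04 after quantile normalization), with Creb3l2, a factor related to Atf6 that acts in secretory cells, at 2.79 and Bak1 at -0.74. On the control RNA scale the medians of these 4 lists lay between -1.16 and -1.02, where Ssr3 and Ostc turned to lower, Selenos was at 0.01 and Creb3l2 stayed higher by 1.78.

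The wider Atf4 programme was followed in 3 of the lists. Other Atf4-linked factors and stress genes had 11 of 13 higher and 0 lower, with a median of 2.62 that stayed at 1.61 on the control RNA scale. Nupr1, a stress-induced chromatin protein, read 8.24, 7.87 and 7.86 in WT and 11.52, 11.54 and 12.19 in M (3.76, 13.5-fold, adjusted p = 2.18e-08). Other amino acid, serine and one-carbon genes had 5 of 17 higher and 7 lower (median -0.11), from Bcat1, which transfers nitrogen from branched-chain amino acids, at 3.10 to the glutamine carrier Slc38a1 at -0.94. The 17 are those tested of 25 on the array. Bcat1 lay under the brightness limit in WT (mean 6.52) and in E (5.54, 5.84 and 5.70), so it was tested only through M and its rise is a description. Genes of eIF2, its kinases and exchange factor had 1 of 12 higher and 10 lower (median -0.53, and -0.72 after quantile normalization). Eif2b3, a subunit of the exchange factor, read 11.20, 11.05 and 11.22 in WT and 10.10, 10.25 and 10.26 in M (-0.96, adjusted p = 1.23e-06), and the adaptor Nck1 was at 0.36 and turned to lower on the control RNA scale.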

How the data were processed

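Total RNA of each sort was amplified and labelled with biotin by a 3' kit for Affymetrix mouse expression arrays, per the labels. The deposited values are log2 signals made by the authors with MAS5, per the submitters' processing notes (version not given), and were used as deposited. MAS5 usually scales each array to a common trimmed mean, so a change in the overall distribution can move the signals of single genes. Of 45101 probe sets, 34958 have 1 symbol in GEO's platform annotation. The 932 with several symbols and the 9211 that the annotation does not name stayed out. The 9097 genes with a mean at or above the median of 18194 were tested in a linear model over all 9 arrays with limma 3.58.1 in R 4.3.3 (eBayes with an intensity trend, 6 residual degrees of freedom), with Benjamini-Hochberg adjustment over the 9097 and a call under 0.05. Standard errors come from the fit, and the number of arrays limits precision. The scripts were tested on simulated data. The members, the wider lists and the markers were chosen with earlier results of these data known. All 35 members are named, other genes by the largest called rise and fall of each list among genes whose arrays did not overlap, and markers from their lists. Alternatives were pseudocounts of 1 and 64 on the linear scale, no brightness filter, the 4549 brightest genes, quantile normalization, centring each array on its median over all 18194 genes, scaling on the control RNAs, limma without the trend, with robust estimation or with weighted arrays, averaging all probe sets of a gene, a replicate block, the 2 groups alone, and each array left out in turn. Promoter windows came from a RefSeq table.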

Additional observations from a re-analysis of the deposited data

How the results depend on the processing

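Directions in M depended on the scale, and the cause of the shift between scales was not tested. In M against WT, with arrays centred on the median and with arrays scaled on the control RNAs, these genes were lower in place of higher: Hspa5 (-0.69 and -0.65), Hsp90b1 (-0.45 and -0.40), Calr (-0.96 and -0.92), Pdia3 (-0.90 and -0.86), Pdia4 (-0.15 and -0.11), Pdia6 (-0.39 and -0.35), P4hb (-0.20 and -0.16), Dnajc3 (-0.54 and -0.50), Sdf2l1 (-0.69 and -0.64), Hyou1 (-0.76 and -0.71), Creld2 (-0.46 and -0.41), Manf (-0.80 and -0.76), Sel1l (-0.45 and -0.41), Atf6 (-0.35 and -0.31), Ern1 (-0.096 and -0.052), Eif2ak3 (-0.41 and -0.37), Atf4 (-0.43 and -0.39), Ddit3 (-0.73 and -0.68), Mthfd2 (-0.52 and -0.47) and Slc3a2 (-0.39 and -0.35). In M against E the same held for Pdia3 (-0.97 and -0.84), Sdf2l1 (-0.98 and -0.85), Manf (-1.01 and -0.89) and Ddit3 (-0.76 and -0.64). Under the same 2 scalings, 8482 and 8188 of all 9097 genes tested were called in M against WT, 1004 and 966 of them higher. The medians over all genes tested were -1.24 and -1.20. In M against E, 8545 and 8210 were called, 1021 and 1031 of them higher, with medians of -1.33 and -1.21. Beside these, ER folding genes in M against WT had 2 and 2 called higher, 17 and 11 lower and medians of -0.45 and -0.41. Against E they had 3 and 3 higher, 18 and 12 lower and medians of -0.57 and -0.44. Atf4-linked genes in M against WT had 1 and 2 higher, 9 and 8 lower and medians of -0.73 and -0.68. Against E they had 2 and 2 higher, 9 and 7 lower and medians of -0.76 and -0.64. In E against WT centring gave medians of 0.079 (ER folding) and 0.099 (Atf4-linked), and the control RNA scale 1 Atf4-linked gene called lower (Trib3, with the limit given above).

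Other settings moved fewer values. Genes called in E against WT (192) were 85 among the 4549 brightest genes, 109 after quantile normalization, 848 with array weights, 99 with the mean of probe sets, 756 from the 2 groups alone and 98 to 836 with 1 array left out. Testing the 4549 brightest genes gave 3466 genes called in M against WT and 3485 in M against E, 3 Atf4-linked genes higher in M than in WT and Atf4-linked medians of -0.15 in both, since fewer genes were tested. ER folding genes called lower in M against WT were 1 without the brightness filter, after quantile normalization or without the trend, and 1 to 2 with 1 array left out. In E against WT, array weights called 2 ER folding genes lower, 2 Atf4-linked genes higher and 1 lower, the 2 groups alone 2 lower and 3 higher, the mean of probe sets 1 Atf4-linked gene higher, and leaving out 1 array 0 to 2 ER folding genes lower and 0 to 3 Atf4-linked genes higher. Atf4-linked medians in M against WT and against E were 0.22 and 0.25 after quantile normalization, 0.51 and 0.55 with array weights, and 0.22 to 0.54 and 0.27 to 0.59 with 1 array left out. With the mean of probe sets the Atf4-linked median in M against WT was 0.063 and the ER folding medians were 0.52 against WT, 0.40 against E and 0.039 for E against WT. A fit with the replicate block called 153, 6100 and 6248 genes in E against WT, M against WT and M against E. It changed the call of 1 member, Pdia3 in M against E (adjusted p = 0.0513). Deviations of arrays with the same number correlated between -0.10 and 0.08, so the numbers were not taken as pairs. Of 1786 values of single members under these alternatives, 1598 kept their direction and side of the threshold, 43 changed sign with no call on either side, 61 lost a call, 36 gained 1 and 48 reversed.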
